A study of Mus musculus with 10 samples.

Results

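Hepatocyte identity is maintained by a small group of liver-enriched transcription factors, and 9 of their genes were followed here in the livers of mice lacking *Ndrg3* in hepatocytes. They are the nuclear receptor genes *Hnf4a* and *Nr5a2*, the forkhead genes *Foxa1*, *Foxa2* and *Foxa3*, the basic leucine zipper genes *Cebpa* and *Cebpb*, and the homeobox genes *Onecut1* and *Prox1*. The genes were taken by symbol from the 24052 gene symbols in the count tables, and all 9 were found and were abundant enough to test. RNA was sequenced from 10 livers, each as 1 library, of which 5 were wild-type and 5 were Ndrg3 LKO. All mice were labelled C57BL/6 and fed ad libitum, and the conditional *Ndrg3* line had been backcrossed to C57BL/6N. The Ndrg3 LKO mice carried a deletion of *Ndrg3* exon 4, made by Cre recombinase under the albumin promoter, which is active in hepatocytes and their precursors, so that blood-derived, endothelial and stellate cells keep the gene, and the controls were wild-type littermates. The study used male mice unless it says otherwise, and gives the age of these mice in 2 differing ranges of weeks. Whole liver was sequenced, so that for every value below fewer cells of a type and less RNA per cell cannot be told apart.

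These factors bind one another's promoters and enhancers as well as the genes of hepatocyte function, and form a cross-regulating network. FOXA proteins are pioneer factors that open chromatin in the embryonic liver. HNF4A and C/EBPα hold the differentiated state, in which the hepatocyte makes plasma proteins, lipoproteins, bile acids and drug-metabolising enzymes, while C/EBPβ is induced in the acute phase response and in regeneration. NR5A2 (LRH-1) drives genes of bile acid and cholesterol handling, ONECUT1 (HNF6) acts in hepatocytes and bile duct cells, and PROX1 is a cofactor of HNF4A and NR5A2 that is also the master regulator of lymphatic endothelium.

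In mm9, *Hnf4a* lies on chromosome 2 (plus strand, 163332544 to 163398646), *Foxa2* on chromosome 2 (minus strand, 147868613 to 147872705) and *Cebpb* on chromosome 2 (plus strand, 167514415 to 167515918). *Cebpa* lies on chromosome 7 (plus strand, 35904312 to 35906945) and *Foxa3* on chromosome 7 (minus strand, 19598631 to 19608887). *Cebpa* and *Cebpb* each have 1 exon. *Foxa1* lies on chromosome 12 (minus strand, 58641618 to 58647108), *Onecut1* on chromosome 9 (plus strand, 74709728 to 74737591), *Nr5a2* on chromosome 1 (minus strand, 138740161 to 138857004) and *Prox1* on chromosome 1 (minus strand, 191945660 to 191994559). Exons of *Cebpb* overlap those of *Tmem189* on the opposite strand, and exons of *Onecut1* overlap those of *Gm16551* on the same strand. Exons of *Prox1* overlap those of *Gm17566*, a gene without counts here, on the opposite strand. The strand setting of the counting was not given in the sources used here, so that the counts of *Cebpb* and *Prox1* may be affected by these neighbours. The counts of *Onecut1* may be affected by *Gm16551* under any strand setting.

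The stretches upstream of the start sites are shown for *Hnf4a*, *Cebpa* and *Foxa2*, whose calls described below held in all 19 alternative analyses. They are RefSeq promoter windows, each found at exactly 1 place on its mm9 chromosome, printed 5′ to 3′ on the gene's strand up to the first annotated exon. The *Hnf4a* stretch is chr2:163332343-163332543 (plus strand) and precedes the upstream of its 2 promoters, the *Cebpa* stretch is chr7:35904062-35904311 (plus strand), and the *Foxa2* stretch is chr2:147872706-147872955 (minus strand), at the most upstream of its 3 start sites. Capitals mark matches to motifs of the factors themselves.
Hnf4a upstream promoter: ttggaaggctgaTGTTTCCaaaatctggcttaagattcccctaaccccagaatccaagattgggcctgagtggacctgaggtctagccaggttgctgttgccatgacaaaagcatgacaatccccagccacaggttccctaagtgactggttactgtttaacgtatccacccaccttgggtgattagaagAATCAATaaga
Cebpa promoter: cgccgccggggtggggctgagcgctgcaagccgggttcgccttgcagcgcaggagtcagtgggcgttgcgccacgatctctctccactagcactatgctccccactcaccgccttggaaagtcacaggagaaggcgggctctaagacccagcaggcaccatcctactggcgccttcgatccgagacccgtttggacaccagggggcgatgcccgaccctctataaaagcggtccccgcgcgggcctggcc
Foxa2 distal promoter: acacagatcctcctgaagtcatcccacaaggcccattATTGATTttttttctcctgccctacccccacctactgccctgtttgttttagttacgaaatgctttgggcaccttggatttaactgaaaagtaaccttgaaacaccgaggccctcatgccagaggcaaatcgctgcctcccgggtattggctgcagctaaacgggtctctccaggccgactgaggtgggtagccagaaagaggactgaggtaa

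The motifs searched, on both strands of the 300-base windows, were CAAAGTCC for HNF4, TGTTTNC for FOXA, TTGCNNAA for C/EBP, ATTGATT for ONECUT and CAAGGTCA for NR5A2. Distances are counted from the RefSeq start site, which for *Hnf4a* lies inside the first annotated exon and so downstream of the end of the printed stretch. The upstream *Hnf4a* window held a FOXA match starting 238 bases before the start site and an ONECUT match 60 bases before it. The most upstream *Foxa2* window held an ONECUT match 213 bases before its start site. The downstream *Hnf4a* promoter, used in adult liver, lies within the gene at chr2:163372641-163372940, and its window held none of the 5 motifs. The *Cebpa* window also held none. Of the other windows, that of *Foxa1* and 1 of the 2 of *Prox1* held a FOXA match, and 1 of the 2 of *Nr5a2* held a C/EBP match. Those of *Cebpb*, *Foxa3* and *Onecut1* and the remaining windows of *Foxa2* held none. No match overlapped another. Over the 32544 promoter windows of the table, 20.5% held the FOXA motif, 10.8% the C/EBP motif, 2.74% the ONECUT motif, 1.53% the NR5A2 motif and 1.43% the HNF4 motif. A match is a run of letters and was not tested as a binding site.

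Counts on genes summed to 20872262 to 24747870 in the wild-type livers and to 23474693 to 30450057 in the Ndrg3 LKO livers. *Ndrg3* itself, counted over the whole gene, had 16 to 21.9 CPM (read counts relative to the depth of the library, with TMM scaling between libraries) in the wild-type livers and 7.08 to 9.18 CPM in the Ndrg3 LKO livers. Ndrg3 LKO replicate 5 stood apart from the other Ndrg3 LKO livers. On the first principal component, which held 68.7% of the variance, it was at 14.1, against 51.1 to 56.6 for the other Ndrg3 LKO livers and −49.9 to −43.1 for the wild-type livers. The 20 most abundant genes took 26.6% of its counts, against 16.3% to 17.3% in the other Ndrg3 LKO livers and 26.2% to 28.0% in the wild-type livers. The study's own display of these RNA data shows fewer Ndrg3 LKO livers than the files hold, and which was left out is not given in the sources used here. Fitted changes of the factors are therefore given with and without Ndrg3 LKO replicate 5, and those of other genes where stated.

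To determine whether the hepatocyte factors differed between the genotypes, their counts were tested in a fit of all genes with edgeR's quasi-likelihood test and Benjamini-Hochberg adjustment at 0.05. *Hnf4a*, *Cebpa* and *Cebpb* were lower and *Foxa2* was higher in the Ndrg3 LKO livers, that is 4 of the 9 genes, 3 lower and 1 higher. Over all 11208 genes tested, 5443 (48.6%) passed the same test, 2865 (25.6%) higher and 2578 (23.0%) lower, so that the share of the 9 genes that passed was near that of all genes. The CPM groups did not overlap for 2 of the 9, *Hnf4a* and *Cebpa*, against 31.5% of all genes tested. Without Ndrg3 LKO replicate 5 the same 4 genes passed, against 55.6% of all genes. Scaling by total counts alone moved the median over all genes from 0.03 to 0.56 on the log2 scale and the calls to 5834 higher and 1005 lower. On that scale 5 of the 9 genes passed, *Foxa1* and *Foxa3* among them but not *Cebpb*, and directions below are therefore also given relative to the median of all genes.

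**Figure D1:**
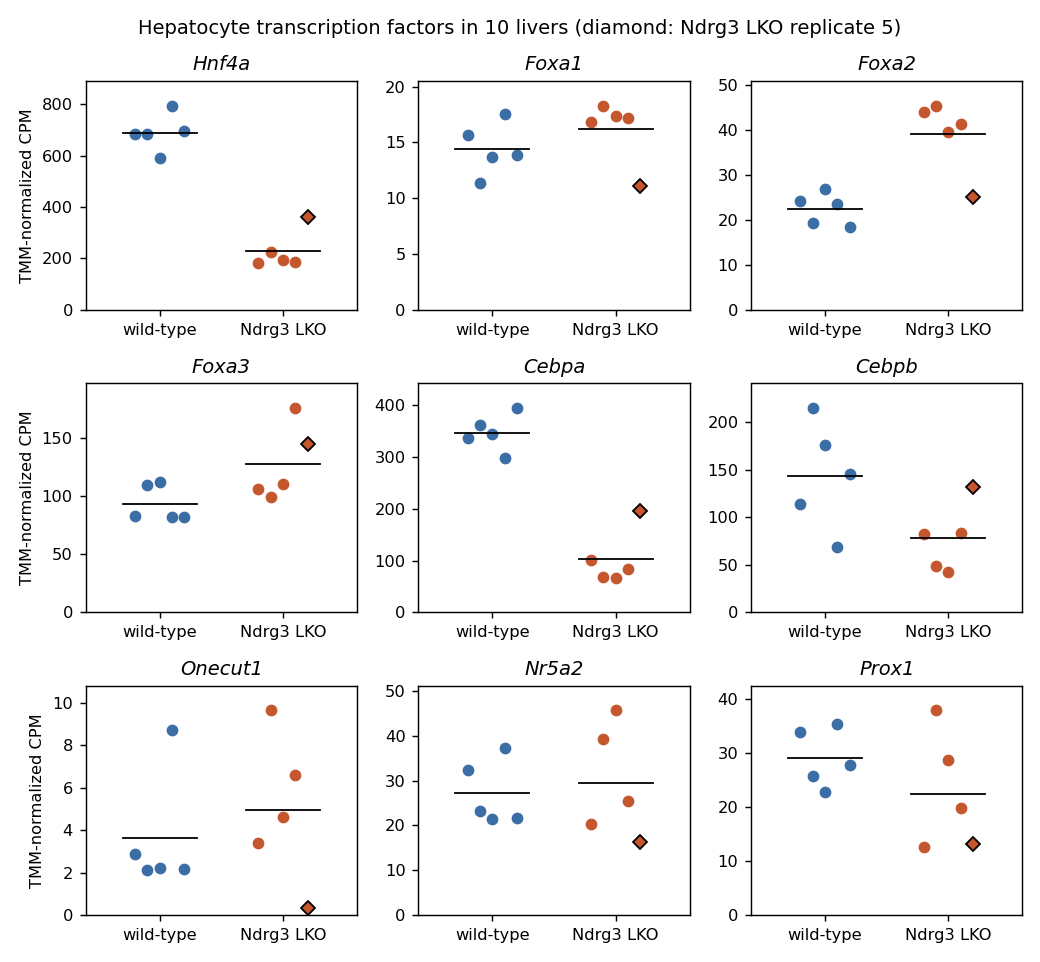
TMM-normalized CPM of the 9 transcription factor genes (y axis, linear, from 0) in the 5 wild-type and 5 Ndrg3 LKO livers (x axis). Points are livers, lines are group means, and the diamond is Ndrg3 LKO replicate 5. The Ndrg3 LKO livers lie at 181 to 362 CPM for Hnf4a and 65.9 to 196 CPM for Cebpa, below every wild-type liver.

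*Hnf4a*, the gene of the nuclear receptor that controls a large part of the hepatocyte programme, had 682, 685, 590, 794 and 694 CPM in wild-type livers 1 to 5 and 181, 227, 194, 187 and 362 CPM in Ndrg3 LKO livers 1 to 5. The groups did not overlap, all Ndrg3 LKO values being the lower ones, and Ndrg3 LKO replicate 5 was the highest of its group. The mean went from 689 ± 72.3 to 230 ± 75.9 CPM (SD, n = 5 each), or 33.4% of wild-type. *Hnf4a* fell by 1.58 on the log2 scale (SE 0.21, edgeR adjusted p = 0.000134). The exact 2-sided permutation test of the CPM over 252 splits gave p = 0.00794, the smallest it allows. Without Ndrg3 LKO replicate 5 the fitted change was −1.82 on the log2 scale (edgeR adjusted p = 1.28e-06). Relative to the median of all genes it was −1.61 with TMM and −1.67 with scaling by total counts.

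*Cebpa*, whose product C/EBPα is needed for the differentiated and non-dividing state, had 336, 361, 343, 298 and 394 CPM in the wild-type livers and 101, 67.7, 65.9, 83.3 and 196 CPM in the Ndrg3 LKO livers. As for *Hnf4a*, the groups did not overlap and Ndrg3 LKO replicate 5 was nearest to the wild-type livers. Its mean was 346 ± 35.1 CPM in wild-type and 103 ± 53.8 CPM in Ndrg3 LKO livers (SD, n = 5 each), 29.6% of wild-type. *Cebpa* fell by 1.76 on the log2 scale (SE 0.28, edgeR adjusted p = 0.000475; exact permutation p = 0.00794). It was −2.14 without Ndrg3 LKO replicate 5 (edgeR adjusted p = 1.21e-06). Relative to the median of all genes it was −1.79 with TMM and −1.87 with scaling by total counts.

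*Cebpb* varied widely among livers of 1 genotype. It had 114, 215, 176, 68.9 and 146 CPM in the wild-type livers and 82.7, 48.6, 42.7, 83.4 and 132 CPM in the Ndrg3 LKO livers. The groups overlapped, since wild-type replicate 4 lay below 3 of the Ndrg3 LKO livers, and the highest wild-type value was 3.13 times the lowest. Its fitted change was −0.89 on the log2 scale (SE 0.34, edgeR adjusted p = 0.0479), and the exact permutation test gave p = 0.0714. Its adjusted p ranged from 0.00132 to 0.206 over the 19 alternatives and its call was lost in 12 of them, among them scaling by total counts and 8 of the 10 fits without 1 liver. The fits that left out wild-type replicate 4 or Ndrg3 LKO replicate 5 kept it, the latter with a log2 fold change of −1.17 (edgeR adjusted p = 0.00785). Against the median of all genes *Cebpb* was at −0.92 with TMM and −0.98 with scaling by total counts.

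Among the forkhead genes, *Foxa2* rose, while *Foxa3* and *Foxa1* did not pass the test with TMM but did with scaling by total counts. *Foxa2*, which in the adult liver acts in lipid and bile acid metabolism, had 24.3, 19.4, 26.8, 23.6 and 18.5 CPM in the wild-type livers and 43.9, 45.4, 39.6, 41.3 and 25.1 CPM in the Ndrg3 LKO livers. Ndrg3 LKO livers 1 to 4 lay above every wild-type liver, and Ndrg3 LKO replicate 5 lay within the wild-type range. Its log2 fold change was 0.79 (SE 0.17, edgeR adjusted p = 0.00281; exact permutation p = 0.0159), and 0.90 without Ndrg3 LKO replicate 5 (edgeR adjusted p = 0.000133). On the 2 scales it was 0.76 and 0.79 above the median of all genes.

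*Foxa3*, the forkhead gene with the highest level in adult liver, had 82.8, 110, 112, 81.8 and 82.3 CPM in the wild-type livers and 106, 99.0, 111, 176 and 145 CPM in the Ndrg3 LKO livers. Ndrg3 LKO livers 4 and 5 lay above every wild-type liver and the other 3 within the wild-type range. *Foxa3* had a log2 fold change of 0.44 (SE 0.18, edgeR adjusted p = 0.0599), and 0.38 without Ndrg3 LKO replicate 5 (edgeR adjusted p = 0.101). It passed the test at 0.52 without Ndrg3 LKO replicate 2 (edgeR adjusted p = 0.034), and at 0.96 with scaling by total counts, where it was 0.40 above the median of all genes.

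*Foxa1* had 15.7, 11.4, 13.7, 17.5 and 13.9 CPM in the wild-type livers and 16.8, 18.3, 17.4, 17.2 and 11.1 CPM in the Ndrg3 LKO livers. Ndrg3 LKO livers 1 to 4 lay between 16.8 and 18.3 CPM, near the top of the wild-type range, and Ndrg3 LKO replicate 5 was below every other liver. The log2 fold change was 0.16 (SE 0.16, edgeR adjusted p = 0.428), and 0.26 without Ndrg3 LKO replicate 5 (edgeR adjusted p = 0.124). With scaling by total counts it was 0.71 (edgeR adjusted p = 0.0185), or 0.15 above the median of all genes.

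*Onecut1* was the least abundant of the 9, with 2.87, 2.10, 2.23, 8.70 and 2.15 CPM in the wild-type livers and 3.40, 9.64, 4.64, 6.62 and 0.33 CPM in the Ndrg3 LKO livers. Wild-type replicate 4 was above 4 of the 5 Ndrg3 LKO livers, and Ndrg3 LKO replicate 5, with 7 counts, was below every other liver. With all livers the log2 fold change was 0.45 (SE 0.63, edgeR adjusted p = 0.576; exact permutation p = 0.944). With these 2 livers left out, a choice made after seeing the data, it was 1.37 (edgeR adjusted p = 0.00409), and with single livers left out it ranged from 0.06 without Ndrg3 LKO replicate 2 to 1.09 without wild-type replicate 4, with 0.73 without Ndrg3 LKO replicate 5 (edgeR adjusted p = 0.186). Scaling by total counts gave 1.03 (edgeR adjusted p = 0.204), or 0.47 above the median of all genes.

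*Nr5a2* had 32.4, 23.2, 21.4, 37.4 and 21.6 CPM in the wild-type livers and 20.3, 39.4, 45.7, 25.5 and 16.2 CPM in the Ndrg3 LKO livers. The Ndrg3 LKO livers spread on both sides of the wild-type range, with replicates 2 and 3 above it and replicates 1 and 5 below it. *Nr5a2* had a log2 fold change of 0.12 (SE 0.28, edgeR adjusted p = 0.752), and changed sign to −0.01 without Ndrg3 LKO replicate 2 and −0.10 without replicate 3. Without Ndrg3 LKO replicate 5 it was 0.26 (edgeR adjusted p = 0.406). It was 0.69 with scaling by total counts (edgeR adjusted p = 0.0982), or 0.13 above the median of all genes.

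*Prox1* had 33.9, 25.6, 22.7, 35.3 and 27.7 CPM in the wild-type livers and 12.6, 37.8, 28.7, 19.8 and 13.1 CPM in the Ndrg3 LKO livers. Ndrg3 LKO replicates 1, 4 and 5 lay below every wild-type liver and replicate 2 above all of them. The log2 fold change was −0.37 (SE 0.29, edgeR adjusted p = 0.299), and −0.24 without Ndrg3 LKO replicate 5 (edgeR adjusted p = 0.46). It turned to 0.21 with scaling by total counts (−0.35 relative to the median of all genes), and passed the test without Ndrg3 LKO replicate 2, at −0.64 (edgeR adjusted p = 0.0495).

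**Figure D2:**
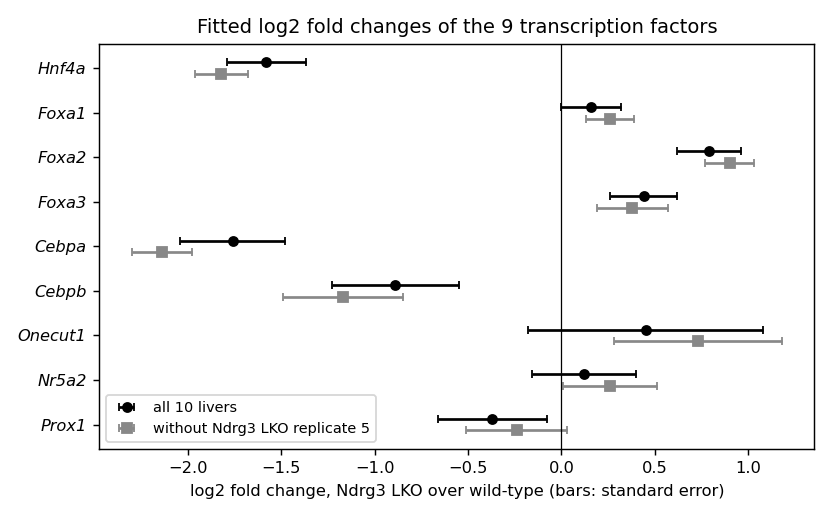
Log2 fold changes of Ndrg3 LKO over wild-type livers from edgeR (x axis) for the 9 genes (y axis), with all 10 livers (black circles) and without Ndrg3 LKO replicate 5 (grey squares). Bars are standard errors. Hnf4a and Cebpa lie at −1.58 and −1.76 with all livers and further from 0 without replicate 5, and Foxa2 lies at 0.79.

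Because a fold change depends on how the libraries are scaled, the counts of the genes were also compared as ratios within each liver, where scaling cancels. The ratio of *Foxa2* to *Hnf4a* counts was 0.0356, 0.0283, 0.0454, 0.0298 and 0.0267 in wild-type livers 1 to 5, against 0.243, 0.2, 0.204, 0.221 and 0.0692 in Ndrg3 LKO livers 1 to 5. It was higher in every Ndrg3 LKO liver, by 2.40 on the log2 scale, from a geometric mean of 0.0325 to 0.172. The ratio of *Foxa3* to *Hnf4a* rose by 2.05 on the log2 scale, from 0.135 to 0.560, and that of *Foxa1* to *Hnf4a* by 1.78, from 0.0209 to 0.0717. For each FOXA gene, the ratio to *Hnf4a* did not overlap between the groups, and Ndrg3 LKO replicate 5 was the lowest of its group. In that liver *Foxa1* to *Hnf4a* was 0.0308, against 0.0805 to 0.0928 in the other Ndrg3 LKO livers.

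Within families, *Foxa2* gained on *Foxa1*, with ratios of 1.33 to 1.96 in the wild-type livers and 2.25 to 2.62 in the Ndrg3 LKO livers, a log2 difference of 0.62. The ratio of *Cebpb* to *Cebpa* was 0.338, 0.597, 0.513, 0.231 and 0.371 in wild-type livers 1 to 5, against 0.821, 0.718, 0.648, 1 and 0.673 in Ndrg3 LKO livers 1 to 5. In every Ndrg3 LKO liver it was above every wild-type liver, by 0.97 on the log2 scale, from a geometric mean of 0.389 to 0.762. Ndrg3 LKO replicate 5 lay within the range of its group for *Cebpb* to *Cebpa* and at its lower end, 2.25 against 2.27 to 2.62, for *Foxa2* to *Foxa1*, although it stood apart in *Foxa2*, *Foxa1* and *Cebpa* taken alone.

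The ratio of *Cebpa* to *Hnf4a*, the genes that fell most, was 0.376 to 0.582 in the wild-type livers and 0.298 to 0.557 in the Ndrg3 LKO livers, and these ranges overlapped. Its log2 difference was −0.25, with SDs of 0.25 and 0.40 (n = 5 each), and a shift was not detected (exact 2-sided permutation p = 0.254, adjusted over the 36 pairs 0.366). *Foxa3* to *Foxa1* and *Foxa3* to *Foxa2* ratios differed by 0.27 and −0.35 on the log2 scale and overlapped between the groups, with adjusted p of 0.531 and 0.385 in the exact permutation test.

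Of the 36 pairs among the 9 genes, 8 (22.2%) had ratios that did not overlap between the groups, against 32.3% of the pairs of all 11176 genes with no count of 0. The 8 comprised the 3 ratios of FOXA genes to *Hnf4a*, *Foxa2* to *Foxa1*, *Cebpb* to *Cebpa*, and lower ratios of *Cebpa* to *Foxa2* (log2 difference −2.65), *Cebpa* to *Foxa3* (−2.30) and *Prox1* to *Foxa2* (−1.26). Each of the 8 had an exact permutation p of 0.00794 and an adjusted p of 0.0357 over the 36 pairs. For *Cebpa* to *Foxa2*, Ndrg3 LKO replicate 5 was at 7.8, against 1.49 to 2.3 in the other Ndrg3 LKO livers. A further 9 pairs had an unadjusted p under 0.05 but not an adjusted one, 17 in all. The pairs share genes and are not independent of each other. With 1 liver left out the number with an adjusted p under 0.05 was between 0 and 19, the highest without Ndrg3 LKO replicate 5. It was 0 in 7 of these 10 fits, in which the wild-type livers or Ndrg3 LKO replicate 1 or 4 were left out in turn. With a liver left out the exact test has fewer splits and groups of unequal size. Its adjusted p can then rise although groups that did not overlap still do not. These numbers therefore cannot show whether the ratios rest on single livers.

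**Figure D3:**
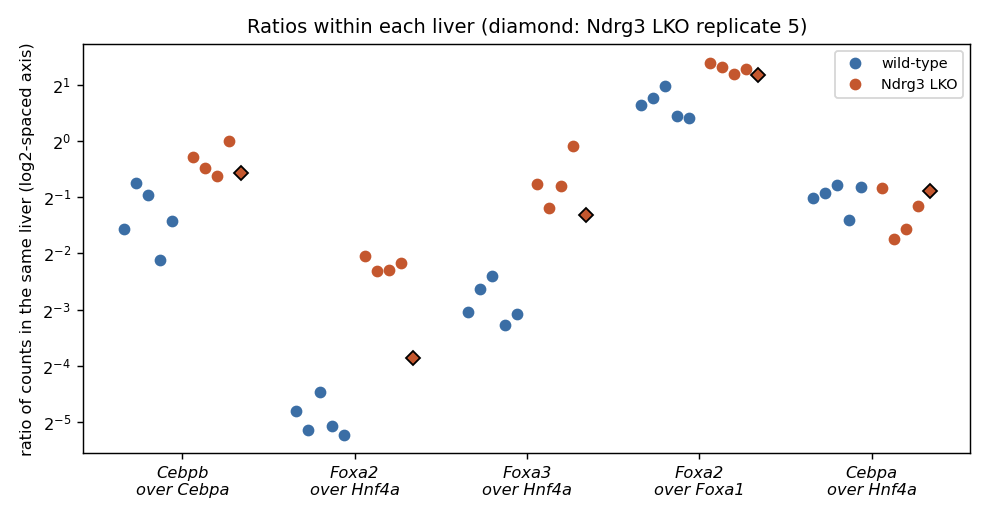
Ratio of the counts of 2 genes in the same liver (y axis, spaced by powers of 2) for 5 pairs (x axis). Points are livers and the diamond is Ndrg3 LKO replicate 5. Wild-type and Ndrg3 LKO livers do not overlap in the first 4 pairs and overlap in Cebpa over Hnf4a.

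The levels of the genes were compared with each other per exon length, as TPM within a liver. In wild-type livers *Hnf4a* (234 ± 42.6 TPM), *Cebpa* (222 ± 10.6) and *Cebpb* (160 ± 58.2, SD, n = 5) led, followed by *Foxa3* (77.7 ± 12.3). Below a gap came *Foxa2* (16.2 ± 3.08), *Nr5a2* (12.2 ± 4.25), *Prox1* (12.0 ± 3.02), *Foxa1* (7.75 ± 1.80) and *Onecut1* (3.04 ± 2.77). *Foxa3* and *Foxa2* were the only neighbours in this order whose ranges did not overlap, and *Hnf4a* was above *Cebpa* in 2 of the 5 livers.

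In Ndrg3 LKO livers the order of the leading genes was *Foxa3* (158 ± 40.3 TPM), *Cebpb* (124 ± 30.6), *Hnf4a* (114 ± 21.9) and *Cebpa* (92.5 ± 23.5). Each of the first 3 was above the next in 3 of 5 livers, so that their order was not resolved. *Foxa2* (43.8 ± 15.1) followed, below *Cebpa* in all 5 livers, then *Nr5a2* (21.0 ± 12.1), *Prox1* (14.9 ± 9.53), *Foxa1* (13.4 ± 4.47) and *Onecut1* (6.61 ± 5.18). TPM is a share of all transcripts, so that these values are not a test between the genotypes.

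Expressed as shares of the summed TPM of the 9 genes, *Hnf4a* made up 26.3% to 40.0% in the wild-type livers and 15.0% to 22.6% in the Ndrg3 LKO livers. The share of *Cebpa* was 27.6% to 33.2% and 12.7% to 22.7%, and that of *Foxa3* was 8.95% to 12.2% and 21.8% to 34.8%. *Foxa2* made up 1.65% to 2.53% and 3.24% to 9.54%. These 4 shares did not overlap between the groups, whereas *Cebpb* held a mean of 21.3% in wild-type and 21.2% in Ndrg3 LKO livers. A share moves when any of the other genes moves, and no test was made of it. Among the FOXA genes alone, *Foxa3* held 72.2% to 82.1% of the summed TPM in the wild-type livers and 66.1% to 83.5% in the Ndrg3 LKO livers, and *Foxa2* 12.5% to 18.4% and 12.4% to 26.1%.

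**Figure D4:**
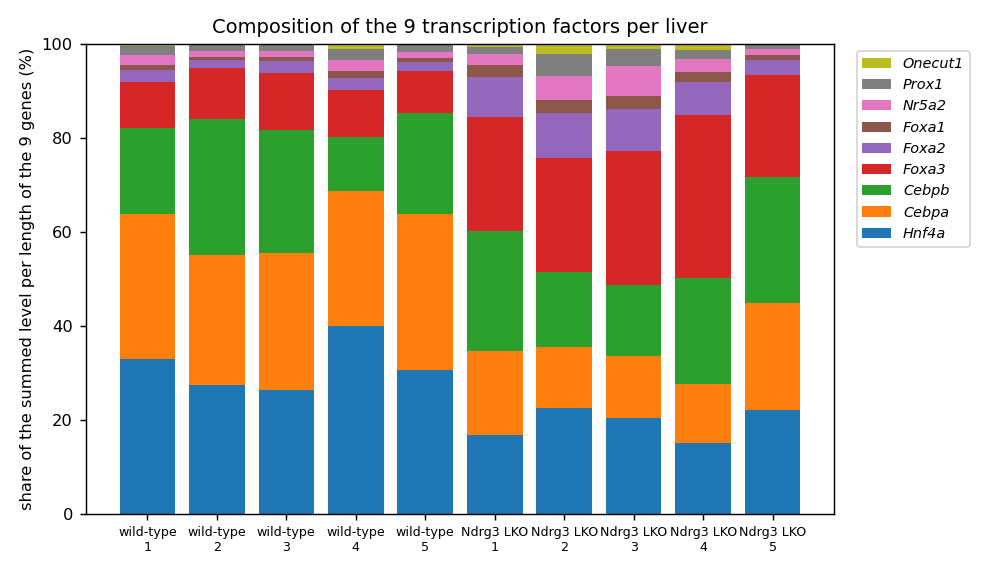
Share of each gene in the summed TPM of the 9 genes (y axis, %, stacked) for each wild-type and Ndrg3 LKO liver (x axis). Hnf4a and Cebpa narrow and Foxa3 and Foxa2 widen in the Ndrg3 LKO livers. In Ndrg3 LKO replicate 5 Foxa2 makes up 3.24%, the least of its group.

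Genes known from earlier work as targets of these factors were read from the same fit. Of 35 target genes tested out of 36, 3 rose and 21 fell. Their median log2 fold change was −1.14 against 0.03 for all genes tested. Of all genes tested 25.6% rose and 23.0% fell, the shares to set beside each list below. Without Ndrg3 LKO replicate 5 the target counts were 2 and 24, where 55.6% of all genes passed. With scaling by total counts 4 rose and 17 fell, with a median of −0.62 against 0.56 for all genes. Among 14 HNF4A targets, 10 fell and 1 rose (median −1.16), and with quantile normalization 8 fell and 1 rose (median −0.89). The largest falls were in *Cyp8b1*, the sterol 12α-hydroxylase (log2 fold change −4.79, edgeR adjusted p = 0.0144), *Cyp2e1*, the ethanol-inducible cytochrome P450 (−3.56, 1.77e-06), and *Otc*, of the urea cycle (−2.43, 0.0106). *Cyp8b1* and *Otc* rested in size on Ndrg3 LKO replicate 5, without which they were −8.74 and −3.79. *Apoc3*, an apolipoprotein that slows triglyceride clearance, rose (0.68, edgeR adjusted p = 0.0335), a call lost without Ndrg3 LKO replicate 5 (0.55, 0.0516).

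Of 10 C/EBP targets, 5 fell and none rose, while *Cps1*, *Pck1*, *G6pc*, *Gys2* and *Lcn2* did not pass the test. The acute phase genes *Orm1* (log2 fold change −4.59, edgeR adjusted p = 0.00372) and *Saa1* (−3.42, 0.00788) and the tyrosine aminotransferase gene *Tat* (−1.78, 0.0145) fell most. Without Ndrg3 LKO replicate 5, *Orm1* was at −6.42 and *Tat* at −2.67. These counts are near the share of all genes that passed (48.6%), and they moved to 1 higher and 4 lower with scaling by total counts and 1 higher and 3 lower with quantile normalization, where the median was −0.24 in place of −0.88. The 6 FOXA targets tested comprised 5 that fell, among them *Apoa1*, of high-density lipoprotein (−2.34, edgeR adjusted p = 0.011), *Tat* and *Igfbp1* (−1.33, 0.00246), and the fetal albumin-family gene *Afp*, which rose from a mean of 1.01 to 7.09 CPM (2.81, 0.000117). *Apoa1* was at −3.55 without Ndrg3 LKO replicate 5. With quantile normalization 1 of the 6 rose and 3 fell, and their median was −0.70 in place of −1.29. Several of the FOXA targets are also listed as HNF4A or C/EBP targets.

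Of 7 NR5A2 targets, 5 fell, led by *Cyp8b1*, *Nr0b2* (SHP, the bile acid-induced corepressor, −2.18, edgeR adjusted p = 0.00286) and *Scarb1*, the high-density lipoprotein receptor (−1.36, 3.20e-05). Their median was −1.32, beside a log2 fold change of 0.12 for *Nr5a2* itself. Of 6 ONECUT1 targets, *Tat* and *Cyp7a1*, the rate-limiting enzyme of bile acid synthesis (−1.03, edgeR adjusted p = 0.046), fell, *Foxa2* rose, and *Pck1* and the other 2 did not pass the test. The lists overlap and were assigned from general knowledge, with no binding data.

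**Figure D5:**
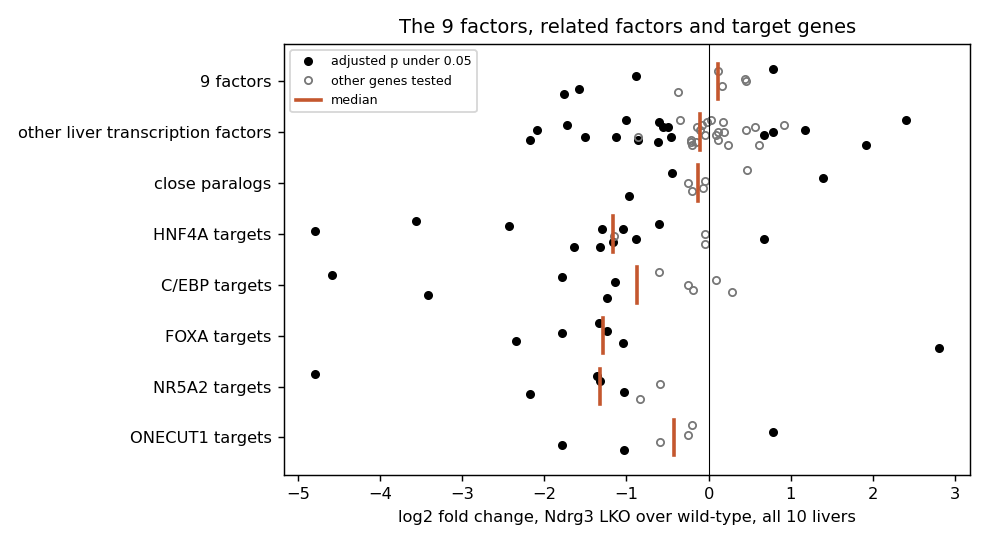
Log2 fold changes of Ndrg3 LKO over wild-type livers (x axis) of the tested genes of each list (y axis, points spread vertically for display only). Filled points have an edgeR adjusted p under 0.05 and vertical bars are list medians. With TMM the HNF4A, FOXA and NR5A2 targets have medians of −1.16, −1.29 and −1.32, and the other liver transcription factors one of −0.11.

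Among a wider set of liver transcription factors, 39 tested out of 41, 5 rose, 12 fell and 22 did not pass the test. The 17 that passed are near the share of all genes (48.6%). The median log2 fold change of all 39 was −0.11. With scaling by total counts 16 rose and 5 fell, and the median was 0.41 against 0.56 for all genes. The largest rises were in *Dbp*, a clock-controlled factor (2.40, edgeR adjusted p = 0.000772), *Atf5*, of the stress response (1.92, 0.000273), and *Esrra*, an activator of mitochondrial genes (1.18, 0.000183). Among the largest falls were those of *Nr0b2*, given above, and *Nr1i3*, the xenobiotic receptor CAR (−1.73, edgeR adjusted p = 0.00304). *Nr1h4*, the bile acid receptor FXR, was at 0.12 (edgeR adjusted p = 0.645).

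Among close paralogs of the 9 genes, 8 of 11 were abundant enough to test. *Cebpe* rose from 3.96 to 10.4 CPM (log2 fold change 1.39, edgeR adjusted p = 0.00213), *Cebpd* fell (−0.97, 0.0346) and *Onecut2* fell from 67.9 to 49.8 CPM (−0.45, 0.00977), and the other 5 did not pass the test. Neither *Cebpd* nor *Onecut2* passed with scaling by total counts, where *Onecut2* changed sign. *Hnf4g*, *Onecut3* and *Nr5a1* had at most 3, 1 and 4 counts in any liver and were not tested.

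The genes whose pattern over the 10 livers was most like that of a changed factor were found by the root mean square difference of log2(CPM + 1) after centring each gene. For *Hnf4a* these were *Kmo*, of kynurenine metabolism (0.13), *Hc*, the complement C5 gene (0.14), and *Ankrd33b* (0.14), with 62 of 11207 genes within 0.25. For *Cebpa* they were *Tmem30b* (0.10), *Phyhd1* (0.14) and *D130020L05Rik* (0.15), with 35 genes within 0.25. For *Cebpb* the nearest was its paralog *Cebpd* (0.21), followed by *Ten1* (0.25) and *Mir6236* (0.26), with 1 gene within 0.25.

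The livers expressed hepatocyte markers at high level, and markers of other liver cells moved with genotype. Of 7 hepatocyte markers tested out of 8, 5 fell and none rose, where 23.0% of all genes tested fell and 25.6% rose. All of these markers but *Fgb* and *Ass1* are also in the target lists above, so that their fall repeats part of that result. Over the list the summed CPM was 128107 to 168490 in wild-type and 34227 to 145062 in Ndrg3 LKO livers, the highest of the latter in replicate 5. The largest part was *Alb*, with means of 94507 CPM in wild-type and 39924 CPM in Ndrg3 LKO livers. *Ass1*, an abundant urea cycle gene of hepatocytes, was near 0 in both groups (0.302 and 0.679 CPM). All 4 macrophage markers tested out of 7 rose (summed CPM over the list 50.7 to 134 and 108 to 301), as did 4 of 5 endothelial markers (48.3 to 60.5 and 84.4 to 132), 4 of 6 stellate cell and fibroblast markers (20.3 to 45.5 and 42.7 to 81.8), and both lymphatic endothelial markers tested out of 4, *Lyve1* and *Flt4* (7.24 to 10.5 and 17.9 to 31.8). *Ccl21a*, a lymphatic marker, was at 0 in every liver, and the macrophage marker Adgre1 was not analysed here.

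Of 5 cholangiocyte markers tested out of 7, *Spp1* rose, *Sox9* fell and *Krt19*, *Krt7* and *Epcam* did not pass the test (summed CPM 38.9 to 72.7 and 51.6 to 222). Neutrophil and lymphocyte markers were too low to test (summed CPM at most 12.7 and 6.09). *Cebpb* is also expressed in macrophages, *Prox1* in lymphatic endothelium and *Foxa1*, *Foxa2* and *Onecut1* in cholangiocytes, and the part of these cells in their values was not tested.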

How the data were processed

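RNA from 10 mouse livers (5 wild-type, 5 Ndrg3 LKO, 1 library each) was sequenced by the authors as stranded, paired-end mRNA libraries, mapped to mm9 and counted per gene with STAR. The submitters' processing notes list Trim Galore 0.6.4, STAR 2.7.3a and Cufflinks 2.2.1. The deposited values are whole-number counts per gene symbol without normalization, although labelled CPM. The annotation and strand setting of the counting were not given in the sources used here.

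Genes reaching 1 CPM in 5 or more livers (the smaller group's size when a liver was left out) were tested with edgeR 4.0.16 (R 4.3.3), TMM scaling, the quasi-likelihood test and Benjamini-Hochberg adjustment at 0.05. Standard errors are |log2 fold change|/√F. Single values and ratios were tested by exact 2-sided permutation over the 252 splits, and ratios over fewer splits where a liver was left out. Lengths came from the GENCODE annotation of NCBIM37 (mm9), which matched 20945 of 24052 symbols (87.1%), and promoter windows from RefSeq (mouse), located in mm9 by exact match. A fixed floor of 3 counts corresponds to 0.0985 to 0.144 CPM before TMM scaling. It is a reference for the lowest counts and does not measure the error of higher values. The tests were checked on simulated counts. Counts differed beyond sampling noise in each of the 20 pairs of livers of 1 group (lowest chi-square per degree of freedom 25.7), so each liver was counted once. The labels name separate livers.

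All 9 factors are named. From each list the 3 genes that passed the test with the highest and the 3 with the lowest log2 fold change are named, with *Nr1h4* and *Nr0b2*, and the 3 genes most like each of the 3 factors with the largest change. Other genes that are named were chosen after their values were seen. The factors, lists and tests were chosen with earlier results of these data known. Alternatives were other scalings, DESeq2 1.42.0, limma 3.58.1 on log2(CPM + 1), other filters, the replicate number as a block, and each liver left out. Some genes that these rules select are not reported here.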

Additional observations from a re-analysis of the deposited data

Results flagged for a closer look

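In groups of 5 livers, 5 values lay apart from the rest of their group, where the gap to the nearest liver exceeded 0.71 of the group's range. The 18 groups of the 9 genes were examined, and chance flags about 1 in 20 groups.

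Ndrg3 LKO replicate 5 was apart in 4 of these. It had 362 CPM of *Hnf4a* against 181 to 227 CPM in the other Ndrg3 LKO livers, and 196 CPM of *Cebpa* against 65.9 to 101 CPM. For *Foxa2* it had 25.1 CPM against 39.6 to 45.4 CPM, and for *Foxa1* 11.1 CPM against 16.8 to 18.3 CPM. In *Hnf4a*, *Cebpa* and *Foxa2* it was the Ndrg3 LKO liver nearest to wild-type, and in *Foxa1* it lay below every wild-type liver.

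Wild-type replicate 4 had 8.70 CPM of *Onecut1*, against 2.10 to 2.87 CPM in the other wild-type livers. The causes were not tested.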

How the results depend on the processing

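The calls of *Hnf4a*, *Cebpa* and *Foxa2* and their directions held in all 19 alternatives, with log2 fold changes of −1.82 to −1.10, −2.19 to −1.31 and 0.71 to 1.35. The number of the 9 genes that passed was 3 to 5, and the numbers of genes passing overall (4254 to 6839) and in the lists stayed within 1.5 times. With scaling by total counts, *Foxa1* (0.71) and *Foxa3* (0.96) passed, *Cebpb* (−0.42) did not and *Prox1* changed sign (0.21). With quantile normalization *Foxa3* was 0.57 and *Cebpb* −0.75, and with a mean CPM of at least 5 they were 0.50 and −0.83, *Foxa3* passing and *Cebpb* not. *Onecut1* was not tested under the latter filter. Without wild-type replicate 4 and Ndrg3 LKO replicate 5, chosen after seeing the data, *Onecut1* was 1.37.

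Leaving out each liver gave 0.30 to 0.52 for *Foxa3*, −1.17 to −0.71 for *Cebpb*, 0.06 to 1.09 for *Onecut1*, −0.10 to 0.26 for *Nr5a2* and −0.64 to −0.22 for *Prox1*. With all livers but 1 the number of pairs of genes past the adjusted threshold was 0 to 19, and the log2 difference was 0.78 to 1.13 for *Cebpb* over *Cebpa*, 2.28 to 2.73 for *Foxa2* over *Hnf4a* and 0.57 to 0.70 for *Foxa2* over *Foxa1*, with adjusted p of up to 0.0714 in the exact permutation test. That test has fewer splits and groups of unequal size when a liver is left out, while groups that did not overlap still do not. Without wild-type replicate 4, 4 genes changed rank in the order of wild-type TPM.

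Livers of the same replicate number did not deviate together (correlations of −0.357 to 0.036, mean −0.216). The labels do not say whether the number pairs the livers, and these correlations cannot exclude it. With the replicate block 4412 genes passed, *Cebpb* (−0.90, edgeR adjusted p = 0.0956) no longer did, and no wild-type liver correlated best with its own number. The cause of these changes was not tested. Depth limits *Onecut1* most, with 7 to 397 counts per liver.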
